A study of Mus musculus with 69 samples.

Results

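Upp1, Ltb, Nphs1, Slc39a8, Mcoln3 and Chst1 are 6 of the 15924 genes measured by RNA-seq in mouse embryonic stem (ES) cells of the established line CJ7 and in embryoid bodies grown from them. They were chosen by their RPKM at day 4 of differentiation, as strong responders to GSK343, a small-molecule inhibitor of EZH2. Upp1, Ltb and Nphs1 were higher and Slc39a8, Mcoln3 and Chst1 were lower with GSK343 at that stage. That choice used the day 4 GSK343 and DMSO libraries, so their difference is described without a test. The libraries the choice did not use answer whether an EZH2 mutation gives the same pattern, whether GSK343 does so at other stages, and whether it persists after replating. In short, all 6 genes differed in the mutant at day 4 in the direction seen with GSK343, yet none passed the unpaired test there, where 0.0494% of all genes did. With same-numbered libraries paired, Slc39a8 alone of the 6 passed there (limma, adjusted p = 0.0403), among 26 of 14180 genes. Under GSK343 at day 8, 4 of the 6 passed the unpaired test, where 31.6% of all genes did.

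The labels cover 69 samples, 42 of them RNA-seq, and 41 RNA-seq libraries in 16 groups were analysed. EZH2-mutant and wild-type CJ7 cells were each sequenced as ES cells and as day 4 and day 8 embryoid bodies, with 3 libraries a group. The labels name neither the mutant allele nor the number of clones behind the RNA-seq libraries. CJ7 cells in 4 µM GSK343 or in an equal volume of DMSO, its solvent, were sequenced at the same 3 stages with 2 libraries a group. The agent was present from 3 days before differentiation until collection, so the GSK343 ES cells had already been exposed to it. Replated cultures were embryoid bodies moved to ES medium for 5 days and collected at day 14. They had GSK343 before and after replating (2 libraries), GSK343 then DMSO, DMSO then GSK343, or DMSO throughout (3 libraries each). ES cells grew on fibroblast feeders, and embryoid bodies were made in hanging drops. Nothing in the labels says that libraries of a group came from separate cultures, so p-values measure the spread between these libraries, which may be technical.

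EZH2 is the main catalytic subunit of Polycomb repressive complex 2 (PRC2), which also holds SUZ12 and EED. PRC2 methylates lysine 27 of histone H3 up to the trimethylated form, H3K27me3, a mark of silent genes that is widespread over developmental regulators in ES cells. RING1B belongs to PRC1, the companion complex that ubiquitinates histone H2A at many of the same loci.

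The 6 genes share no pathway. Ltb encodes lymphotoxin beta, a membrane-bound ligand of the TNF family that signals through the LTBR receptor during lymphoid organ development. Nphs1 encodes nephrin, the immunoglobulin-family adhesion protein of the slit diaphragm between kidney podocytes. Upp1 encodes uridine phosphorylase 1, which splits uridine in pyrimidine salvage. Slc39a8 encodes ZIP8, an importer of zinc, manganese and other divalent metals. Mcoln3 encodes mucolipin 3, a cation channel of endosomes and lysosomes. Chst1 encodes a sulfotransferase that adds sulfate to the galactose of keratan sulfate.

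The genes lie on 5 chromosomes, and 5 of the 6 carried an H3K27me3 peak in the authors' set merged over the wild-type stages. On GRCm38.p6, the build the deposited files call mm10, Upp1 spans chr11:9118008-9136170, Ltb chr17:35194507-35196305 and Nphs1 chr7:30458207-30488623. Slc39a8 spans chr3:135816882-135888572, Mcoln3 chr3:146093277-146141808 and Chst1 chr2:92599632-92615252. Peaks covered the annotated start sites of the genes that were higher with GSK343. They ran over chr11:9113691-9120750 at Upp1, chr17:35192758-35213427 at Ltb and chr7:30440368-30469225 at Nphs1. Among the genes that were lower, the Chst1 start was covered by chr2:92596030-92605501, and the Slc39a8 peak at chr3:135826437-135831033 lay 780 bases from the nearest start. Mcoln3 had no such peak within 5 kb of its span. Of 14355 genes with a known span, 31.7% lay within 1 kb of a merged H3K27me3 peak, beside 5 of these 6, and this difference was not tested. None of the 6 was within 1 kb of a merged Ezh2, Suz12 or Ring1B peak, sets that hold 450, 491 and 782 peaks and touch 1.9%, 2.6% and 5.0% of genes. The authors' deposited table calls Upp1, Ltb, Nphs1, Slc39a8 and Chst1 PRC2 targets, as it does 32.2% of its 14833 genes, and Mcoln3 was not analysed in that table.

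**Figure D1:**
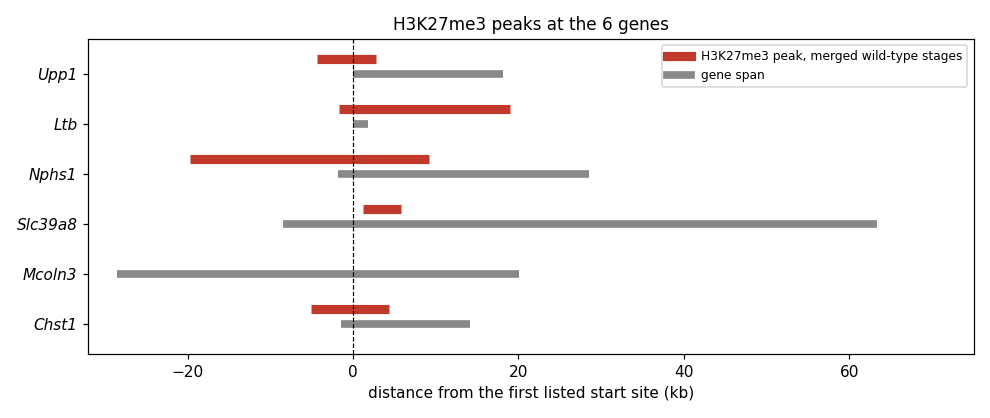
Position of the deposited H3K27me3 peaks (red) relative to the gene span (grey) for the 6 genes, as distance in kb from the first listed start site (dashed line), with transcription running to the right. Peaks cross the line at Upp1, Ltb, Nphs1 and Chst1, lie downstream of it at Slc39a8 and are missing at Mcoln3.

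Suz12 was also called in single libraries, and there the peaks at these genes were short and did not recur at one position. In the 3 wild-type lists, 1 for each stage, none of the 6 genes had a Suz12 peak within 1 kb, and the same held for both mutant ES cell lists. Mutant day 4 library 1 had a peak in Upp1 and in Nphs1, and mutant day 4 library 2 had one in Upp1, Nphs1 and Chst1. In those lists 15.6% and 20.7% of all genes had one. Mutant day 8 library 1 had a peak in Slc39a8 only, against 9.1% of genes, and mutant day 8 library 2 had one at Upp1 and Ltb, against 20.8%. The 2 peaks inside Upp1 at day 4 lay at chr11:9119125-9119625 in library 1 and chr11:9128483-9128983 in library 2. The peaks came from separate calls, and their heights were not compared.

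The 250 bases before the start of 4 of the genes are printed because a peak of H3K27me3, a mark often found on CpG-rich promoters, covers 3 of these starts and is absent at the fourth. Sequences are from RefSeq on GRCm38.p6, plus strand, 5′ to 3′, with each CG dinucleotide in capitals, which reads the same on both strands.
Upp1, chr11:9117758-9118007: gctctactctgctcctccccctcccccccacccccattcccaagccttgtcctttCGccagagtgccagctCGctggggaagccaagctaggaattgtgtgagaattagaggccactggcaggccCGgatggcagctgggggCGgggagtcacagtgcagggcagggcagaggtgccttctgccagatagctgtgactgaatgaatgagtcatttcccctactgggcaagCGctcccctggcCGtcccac
Nphs1, chr7:30459808-30460057: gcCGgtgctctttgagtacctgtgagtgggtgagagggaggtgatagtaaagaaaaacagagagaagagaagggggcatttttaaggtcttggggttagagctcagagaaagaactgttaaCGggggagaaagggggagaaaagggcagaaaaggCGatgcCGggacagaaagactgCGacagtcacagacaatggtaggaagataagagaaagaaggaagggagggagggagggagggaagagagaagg
Chst1, chr2:92600867-92601116: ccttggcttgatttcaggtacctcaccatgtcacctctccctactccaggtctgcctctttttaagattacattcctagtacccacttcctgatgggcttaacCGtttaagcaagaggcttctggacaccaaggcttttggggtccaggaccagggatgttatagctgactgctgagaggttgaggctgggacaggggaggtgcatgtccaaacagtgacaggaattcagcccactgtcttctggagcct
Mcoln3, chr3:146121541-146121790: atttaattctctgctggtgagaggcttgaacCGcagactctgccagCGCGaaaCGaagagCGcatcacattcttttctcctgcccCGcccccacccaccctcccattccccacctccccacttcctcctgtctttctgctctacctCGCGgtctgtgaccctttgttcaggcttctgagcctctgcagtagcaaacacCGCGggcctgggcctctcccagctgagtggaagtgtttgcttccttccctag
Upp1 held 6 CGs, Nphs1 5, Chst1 1 and Mcoln3 10 in this window, and the 2 not printed held 6 (Ltb) and 11 (Slc39a8). The median over 11283 promoters was 16, with quartiles of 9 and 22. Chst1 had the fewest, with 0.9% of promoters below it, while Upp1 and Ltb each had 14.4% below, Nphs1 11.3%, Mcoln3 27.2% and Slc39a8 30.7%. All 6 windows were thus under the median. The genes with a covered start, Upp1, Ltb, Nphs1 and Chst1, each held fewer CGs than Mcoln3 and Slc39a8, whose starts were not covered. Whether the count bears on the mark was not tested.

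Recovered reads ran from 7.17 to 28.5 M in the mutant and wild-type libraries, 5.01 to 22.0 M in the GSK343 and DMSO libraries and 2.27 to 8.34 M in the replated ones. Values are RPKM, reads scaled by gene length and by a library size. In the mutant and wild-type libraries that size was not the total of recovered reads. Wild-type day 4 library 2, with 7.64 M reads, had 0.291 RPKM for 1 read per kb. Mutant day 8 library 2, with 7.17 M reads, had 0.192. In every mutant and wild-type group, library 2 had the largest share of reads on Rn45s, which encodes ribosomal RNA. This share was 18.3 to 57.9% in library 2, and 4.08 to 13.4% in libraries 1 and 3. It was highest in wild-type day 4 library 2 (57.9%), then mutant day 8 library 2 (38.0%) and mutant day 4 library 2 (32.2%). Its part in the comparisons of mutant and wild type was not tested. Differences are on the log2(RPKM + 1) scale, which understates the change of low genes. As a check of the labels, Ezh2 was at 20.7 to 24.4 RPKM in mutant ES cells against 37.2 to 62.5 in wild-type ES cells, 22.0 to 26.5 against 41.0 to 48.3 at day 4, and 18.3 to 26.0 against 41.4 to 45.8 at day 8. Without the allele, an RNA level does not check the protein. Several libraries stood apart from their group across all genes. Wild-type library 3 correlated best with mutant library 3 at each stage, at r = 0.967 in ES cells, 0.990 at day 4 and 0.969 at day 8, against 0.933, 0.954 and 0.904 with its own group. Mutant day 8 library 1 correlated best with wild-type day 8 library 2, at 0.966 against 0.934 with its group. Among replated cultures, the GSK343 then GSK343 library 1 and the DMSO then DMSO library 1 resembled each other at 0.951, against 0.789 and 0.911 within their groups. Other libraries, such as the ES cells with and without GSK343, also correlated as well or better across groups, by smaller margins.

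At day 4, the stage of choice, the 3 genes higher with GSK343 differed from DMSO by 4.39 to 6.46 times in their group means. Upp1 had 222 and 228 RPKM in GSK343 embryoid bodies, against 57.9 and 44.5 in DMSO embryoid bodies. Nphs1 had 8.19 and 8.61 RPKM with GSK343, against 1.95 and 1.79 with DMSO. Ltb had 3.21 and 4.03 RPKM with GSK343, against 0.569 and 0.550 with DMSO, where the values rest on 11 and 13 reads. The fitted differences were 2.12 for Upp1 (SE 0.24), 1.71 for Nphs1 (SE 0.15) and 1.56 for Ltb (SE 0.15), which ranked 6th, 30th and 50th highest of 14016 genes.

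The 3 genes lower with GSK343 at day 4 were at about the same distance from DMSO, with DMSO means 3.12 to 3.61 times those with GSK343. Slc39a8 had 3.55 and 3.93 RPKM with GSK343, against 14.5 and 12.2 with DMSO. Mcoln3 had 0.908 and 1.58 RPKM with GSK343, against 3.87 and 5.12 with DMSO. Chst1 had 1.21 and 1.67 RPKM with GSK343, against 4.56 and 4.42 with DMSO. The fitted differences were -1.59 for Slc39a8 (SE 0.21), -1.30 for Mcoln3 (SE 0.20) and -1.18 for Chst1 (SE 0.20), the 5th, 8th and 19th lowest. All 6 genes had groups that did not overlap, as did 43.6% of genes in this pair of 2 libraries each, and 0.628% of genes passed the adjusted threshold at this stage. The genes ranked next after the weakest members, 1700061G19Rik with a difference of 1.56 and Arrb1 with -1.14, were not chosen. Most genes ranked ahead of those members were not chosen either, so the 6 are not a full set past a threshold. The summed RPKM of 8 pluripotency markers was 1256 and 1437 with GSK343 at day 4, against 855 and 927 with DMSO. The 2 sets of cultures thus also differed in this sum, although not in every marker. Limma called 5 of the 8 higher and 0 lower, which is description in these libraries. Among the 8, Pou5f1 averaged 596 RPKM with GSK343 against 585 with DMSO, and Nanog 29.8 against 31.6. The part of these markers in the differences above was not tested. In bulk RNA, fewer cells of a type and less RNA per cell cannot be told apart.

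**Figure D2:**
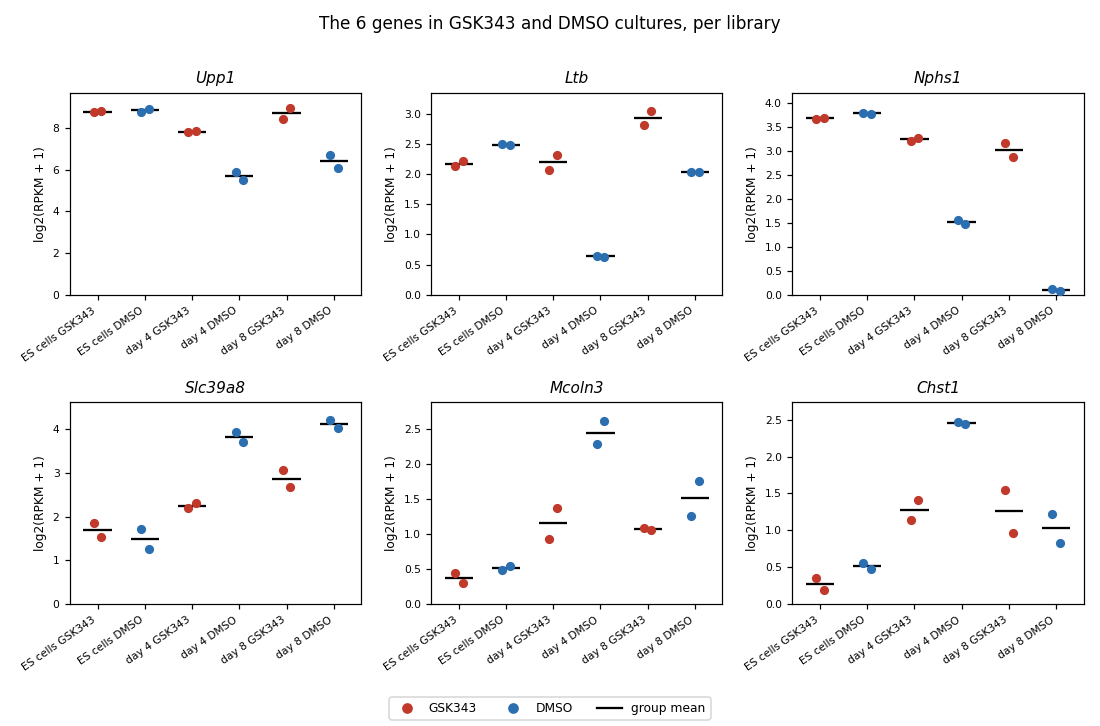
Levels of the 6 genes in GSK343 (red) and DMSO (blue) libraries at 3 stages, as log2(RPKM + 1), with a point for each library and a bar for the group mean (n = 2). The groups lie close together in ES cells and apart at day 4, and at day 8 Nphs1 has the widest gap, with 7.95 and 6.31 RPKM against 0.086 and 0.0504.

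Without GSK343, the 3 genes higher with GSK343 at day 4 were high in ES cells and lower in embryoid bodies, and the other 3 ran the opposite way. Upp1 averaged 460.2 ± 28.6 RPKM in DMSO ES cells, 51.2 ± 9.52 at day 4 and 85.4 ± 27.8 at day 8 (SD, n = 2 each). Nphs1 averaged 12.7 ± 0.146 RPKM in ES cells, 1.87 ± 0.117 at day 4 and 0.0682 ± 0.0252 at day 8. Slc39a8 averaged 1.85 ± 0.629 RPKM in ES cells, 13.3 ± 1.63 at day 4 and 16.5 ± 1.70 at day 8. Mcoln3 and Chst1 peaked at day 4, at 4.49 ± 0.882 and 4.49 ± 0.103 RPKM, with 0.426 and 0.432 in ES cells and 1.89 and 1.05 at day 8. Ltb was lowest at day 4, at 0.560 RPKM, with 4.64 in ES cells and 3.12 at day 8. The DMSO day 4 libraries were among those that chose the genes, so these day 4 peaks and lows partly restate the choice. In the wild-type means, not used for the choice, Chst1 was again highest and Ltb lowest at day 4. Mcoln3 averaged 2.79 ± 0.794 RPKM there at day 4 and 3.26 ± 2.95 at day 8 (SD, n = 3 each).

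Between DMSO day 8 and DMSO ES cells, which leaves out the day 4 libraries, 5 of the 6 genes passed limma's test at an adjusted p under 0.05, where 48.9% of genes did, and all 6 had groups that did not overlap, as did 76.6% of genes. Upp1 fell by 2.45 (adjusted p = 2.6e-05), Nphs1 by 3.68 (1.4e-07) and Ltb by 0.45 (0.0312). Slc39a8 rose by 2.63 (adjusted p = 7.3e-06) and Mcoln3 by 0.998 (0.0027), while Chst1, at 0.51, did not pass (0.0629). Leaving out any 1 of the 4 libraries ended the call of Ltb (adjusted p 0.0899 to 0.111), as did fitting these groups alone (0.0567). Chst1 passed in that fit (adjusted p = 0.0416), with a pseudocount of 0.1 (0.0397) and with a replicate block (0.0384).

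Wild-type cultures gave the same order at day 4, with a wider spread. Slc39a8 had 3.26, 4.15 and 7.71 RPKM in wild-type ES cells and 28.0, 15.8 and 32.2 at day 4. Chst1 had 0.556, 1.38 and 1.48 RPKM in ES cells and 8.03, 4.87 and 3.99 at day 4, and Mcoln3 had 0.425, 0.725 and 0.233, then 3.67, 2.55 and 2.13. Nphs1 had 20.6, 17.0 and 6.31 RPKM in ES cells and 0.994, 0.669 and 9.81 at day 4, where library 3 lies above a value of the ES cells. From ES cells to day 4, 4 of 6 genes passed the test, where 8.67% of all genes did, and 3 of 6 had groups apart, as did 24.4% of genes. Slc39a8 rose by 2.13 (adjusted p = 0.0188), Mcoln3 by 1.37 (0.0163) and Chst1 by 1.62 (0.0389), Nphs1 fell by 2.10 (0.0480), and Upp1 (-1.64, 0.183) and Ltb (-0.97, 0.128) did not pass. The call of Nphs1 was lost with a pseudocount of 0.1 (adjusted p = 0.0832), no filter on low values (0.0502), quantile normalization (0.0548), a fit of these groups alone (0.16) and voom (0.162). The count of calls ranged from 0, without library 1 of either stage, to 6, without day 4 library 3, so it rests on single libraries. From day 4 to day 8 none of the 6 passed, where 20.7% of genes did and 2 of the 6 had an unadjusted p under 0.05, and voom called 0 as well. None of the 6 had groups apart in this step, where 35.6% of genes did. Without day 8 library 3 the count of calls was 3, with 4403 of 14147 genes called. The step to day 4 shares its day 4 libraries with the comparison of mutant and wild type at day 4. A replicate block kept the same number of these genes called in both steps while it moved the count over all genes from 1230 to 2276 for the first and from 2942 to 4902 for the second.

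In ES cells kept in GSK343 for 3 days, none of the 6 genes differed detectably from DMSO. The largest fitted difference was that of Ltb, -0.32 (SE 0.15), with 3.40 and 3.65 RPKM in GSK343 ES cells and 4.70 and 4.58 in DMSO ES cells. Upp1 was at 431 and 457 RPKM with GSK343 and at 439.9 and 480.4 with DMSO. Limma's test called 0 of 6, and 0% of 14016 genes, at an adjusted p of 1 for each of the 6, with 0 of the 6 and 669 of all genes at an unadjusted p under 0.05. Voom on recovered reads also called 0. Of the 6, 4 had groups that did not overlap, as did 32.1% of genes.

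At day 8, libraries that the choice did not use, Upp1, Nphs1 and Ltb were higher and Slc39a8 was lower with GSK343, as at day 4. Upp1 had 348 and 505 RPKM in GSK343 embryoid bodies, against 105 and 65.7 in DMSO embryoid bodies. Nphs1 had 7.95 and 6.31 RPKM with GSK343, against 0.086 and 0.0504 with DMSO, which are 8 and 5 reads. Ltb had 6.10 and 7.28 RPKM with GSK343, against 3.11 and 3.12 with DMSO. Each of the 3 had both GSK343 libraries above both DMSO libraries. Slc39a8 had 7.37 and 5.42 RPKM with GSK343, against 17.7 and 15.3 with DMSO, again without overlap. Mcoln3 had 1.12 and 1.07 RPKM with GSK343, against 1.39 and 2.40 with DMSO. Chst1 had 1.91 and 0.955 RPKM with GSK343, against 1.32 and 0.781 with DMSO, groups that overlap.

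By limma with Benjamini-Hochberg adjustment, 4 of 6 genes passed at day 8, where 31.6% of genes did, and groups were apart for 5 of 6, where 64.8% of genes had this. Upp1 rose by 2.32 (SE 0.24, adjusted p = 6.9e-05), Nphs1 by 2.92 (SE 0.15, 7.4e-07) and Ltb by 0.90 (SE 0.15, 0.0015), and Slc39a8 fell by 1.25 (SE 0.21, 0.0014). Mcoln3, at -0.44 (SE 0.20), did not pass (adjusted p = 0.127), nor did Chst1, whose difference of 0.23 (SE 0.20, 0.431) had the sign opposite to day 4. These 4 calls held when any 1 library was left out. The pluripotency marker sum moved with the result, at 1077 and 1620 RPKM with GSK343 against 134 and 119 with DMSO, with none of its 8 genes at 0, and its part was not tested. The difference between the day 8 and the ES cell effect of GSK343 was itself past the threshold for Upp1 (2.37), Nphs1 (3.02), Ltb (1.22, adjusted p = 0.0036) and Slc39a8 (-1.45, 0.0076), as for 19.9% of genes.

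**Figure D3:**
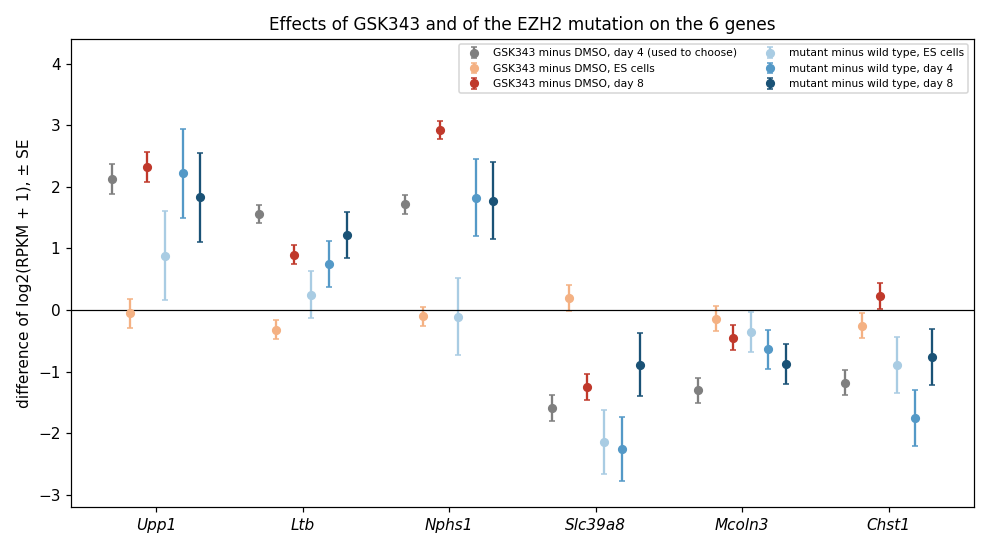
Fitted difference in log2(RPKM + 1) with its SE for the 6 genes in 6 comparisons, GSK343 minus DMSO and mutant minus wild type in ES cells, at day 4 and at day 8 (n = 2 and n = 3 libraries a group). The day 4 GSK343 points (grey) chose the genes. The mutant day 4 points lie on the same side of 0 for each gene, with longer error bars.

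In mutant embryoid bodies at day 4, each of the 6 genes differed from wild type in the direction seen with GSK343, and Slc39a8 and Chst1 stood farthest from wild type relative to their spread. Slc39a8 had 3.34, 4.63 and 5.15 RPKM in mutant embryoid bodies, against 28.0, 15.8 and 32.2 in wild-type ones. Chst1 had 1.04, 1.13 and 0.607 RPKM in mutant embryoid bodies, against 8.03, 4.87 and 3.99 in wild-type ones. Mcoln3 had 1.72, 1.11 and 1.42 RPKM in the mutant, against 3.67, 2.55 and 2.13 in wild type. For each of these 3 genes every mutant library was below every wild-type library.

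Among the genes that were higher with GSK343, Upp1 had 188, 252 and 318 RPKM in mutant day 4 embryoid bodies, against 29.1, 32.7 and 148 in wild-type ones. The groups were apart, although wild-type library 3 came near the lowest mutant library. Nphs1 had 5.66, 13.9 and 15.0 RPKM in the mutant, against 0.994, 0.669 and 9.81 in wild type. Ltb had 1.32, 2.23 and 1.88 RPKM in the mutant, against 0.321, 0.266 and 1.71 in wild type, where the second value is 1 read. For both, wild-type library 3 lay within the mutant range and the other 2 wild-type libraries lay below it.

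The fitted differences at day 4 were -2.25 for Slc39a8 (SE 0.52, adjusted p = 0.237), -1.75 for Chst1 (SE 0.46, 0.357) and -0.64 for Mcoln3 (SE 0.32, 1). They were 2.22 for Upp1 (SE 0.72, adjusted p = 0.628), 1.82 for Nphs1 (SE 0.62, 0.690) and 0.75 for Ltb (SE 0.38, 1). Limma thus called 0 of 6, where 0.0494% of genes (7 of 14180) were called, while 4 of the 6 and 661 of all genes had an unadjusted p under 0.05. Voom on recovered reads also called 0 of the 6. Groups did not overlap for 4 of the 6 genes, against 9.24% of all genes. Same-numbered mutant and wild-type libraries deviated together at this stage, and with the number as a block Slc39a8 passed (-2.25, adjusted p = 0.0403) and the count over all genes was 26. Without wild-type library 3, Nphs1 passed (2.68, adjusted p = 0.0366), one of 94 genes. With the block and without that library, Nphs1 (2.69, 0.0418) and Slc39a8 (-2.38, 0.0305) both passed, among 121 genes. This last setting was chosen after seeing that the library resembled the mutant, so its calls are description and no separate support. Marker sums moved with these genes, since the 8 pluripotency markers summed to 767, 1294 and 1486 RPKM in the mutant and to 553, 616 and 1247 in wild type, and their part was not tested. Among them, Pou5f1 averaged 394 RPKM in the mutant against 408 in wild type, Nanog 60.1 against 54.5 and Sox2 93.8 against 75.6.

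**Figure D4:**
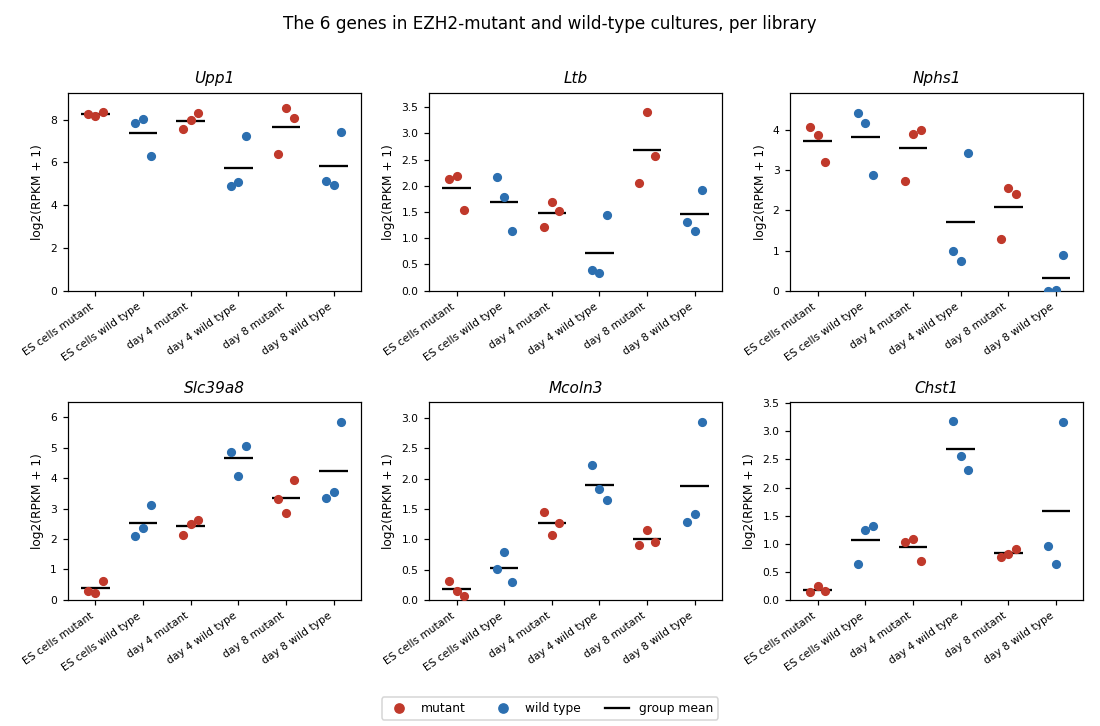
Levels of the 6 genes in EZH2-mutant (red) and wild-type (blue) libraries at 3 stages, as log2(RPKM + 1), with a point for each library and a bar for the group mean (n = 3). Wild-type library 3 is the rightmost blue point of each group and sits nearest the mutant for Upp1, Ltb and Nphs1 at day 4. Slc39a8 and Chst1 are lower in every mutant library in ES cells and at day 4.

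Slc39a8 and Chst1 were already low in mutant ES cells. Slc39a8 had 0.225, 0.184 and 0.537 RPKM in mutant ES cells, against 3.26, 4.15 and 7.71 in wild-type ES cells, so the wild-type mean was 16.0 times the mutant mean. Chst1 had 0.108, 0.181 and 0.117 RPKM (6 to 9 reads) in mutant ES cells, against 0.556, 1.38 and 1.48 in wild-type ES cells. Neither passed the test, with differences of -2.14 (SE 0.52, adjusted p = 0.194) for Slc39a8 and -0.88 (SE 0.46, 0.863) for Chst1. Slc39a8 passed with a pseudocount of 0.1 in place of 1 (-3.63, adjusted p = 0.0269). The other 4 genes had differences between -0.36 and 0.88, and Upp1, at 302, 289 and 324 RPKM in the mutant and 226, 256 and 77.4 in wild type, was the third whose groups did not overlap, as for 13% of genes. Limma called 0 of 6 in ES cells, where 0.0917% of genes were called, as did voom, and 1 of the 6 and 857 of all genes had an unadjusted p under 0.05. Under GSK343, by contrast, Slc39a8 in ES cells was at 2.61 and 1.89 RPKM, against 2.29 and 1.40 with DMSO, and whether the 2 effects differ was not tested, since the tables were scaled separately. Wild-type ES cell library 3, which had the lowest Upp1 and the highest Slc39a8 of its group, also had a summed RPKM of 436 for 7 feeder-fibroblast markers, against 33.3 and 27.1 in the other 2 libraries, and the part of feeder RNA was not tested.

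At day 8 the mutant again differed in the same direction for all 6 genes, with more overlap. Ltb had 3.15, 9.62 and 4.94 RPKM in mutant embryoid bodies, against 1.49, 1.20 and 2.80 in wild-type ones. Nphs1 had 1.45, 4.84 and 4.31 RPKM in the mutant, against 0, 0.0212 and 0.857 in wild type, where the first 2 values are 0 and 1 reads. Mcoln3 had 0.880, 1.23 and 0.945 RPKM in the mutant, against 1.43, 1.68 and 6.67 in wild type. These 3 genes had groups that did not overlap, as did 15.9% of genes. Upp1 had 83.5, 375 and 266 RPKM in the mutant, against 34.3, 30.1 and 172 in wild type. Slc39a8 had 8.89, 6.16 and 14.3 RPKM in the mutant, against 9.11, 10.5 and 57.0 in wild type, and Chst1 had 0.692, 0.768 and 0.881, against 0.956, 0.561 and 7.92. Wild-type library 3 had the highest value of its group for each of the 6 genes, and for Slc39a8, Mcoln3 and Chst1 it alone lay several times above the mutant.

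Limma called 0 of 6 in the mutant at day 8, where 1.51% of genes were called, and voom also called 0, while 4 of the 6 and 2035 of all genes had an unadjusted p under 0.05. The differences were 1.83 for Upp1 (SE 0.72, adjusted p = 0.242), 1.22 for Ltb (SE 0.38, 0.121) and 1.78 for Nphs1 (SE 0.62, 0.182). They were -0.88 for Slc39a8 (SE 0.52, adjusted p = 0.485), -0.87 for Mcoln3 (SE 0.32, 0.203) and -0.76 for Chst1 (SE 0.46, 0.502). Without wild-type library 3, Upp1 (2.62, adjusted p = 0.0270) and Ltb (1.45, 0.0383) passed, and without mutant library 1 Ltb passed (1.53, 0.0471). These fits called 1302 and 505 genes in all, against 214 with every library. Without both of these libraries, Upp1 (3.26, adjusted p = 0.0036), Ltb (1.76, 0.0091) and Nphs1 (2.46, 0.0353) passed, while Slc39a8 (-0.05) and Mcoln3 (-0.29) came near 0 and Chst1 (0.06) turned. That fit called 2457 of 13939 genes, so calls were more frequent among all genes too. Both libraries were picked after seeing that they resembled the other genotype, so the calls of that fit are description and no separate support. The libraries of 1 genotype that resembled the other also did so in pluripotency markers, whose sums were 479, 1295 and 928 RPKM in the mutant and 57.4, 58.2 and 565 in wild type, and the part of this in the result was not tested. Limma's interaction test of the mutant effect at day 8 against that at day 4 called 0 of the 6 and 0% of all genes, as did voom, with 0 of the 6 and 370 of all genes at an unadjusted p under 0.05. Without wild-type day 8 library 3 it called 29 genes, among them Chst1 (1.77, adjusted p = 0.0479), whose lower level in the mutant at day 4 was then not seen at day 8.

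The authors' deposited table of the mutant experiment compares stages within a genotype. By the authors' deposited table, Slc39a8, Mcoln3 and Chst1 were higher at day 4 than in ES cells in the mutant too, with log2 fold changes of 3.43 (adjusted p = 6.6e-11), 2.71 (1.5e-06) and 2.13 (5.1e-05). In wild type the authors' deposited table gives 2.31 (adjusted p = 2.7e-05), 2.36 (4.2e-05) and 2.21 (6.1e-05) for the same genes. So the genes that were lower in the mutant still increased with differentiation in it. For Upp1 and Nphs1 the authors' deposited table gives -0.27 (adjusted p = 0.948) and -0.13 (0.995) in the mutant and -1.42 (0.0193) and -1.91 (0.00068) in wild type.

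After replating, the 3 genes that were higher with GSK343 at day 4 were mostly higher in cultures that had GSK343 during differentiation than in the others, with 2 libraries that crossed. Upp1 had 21.0 and 49.0 RPKM in GSK343 then GSK343 cultures and 59.1, 47.6 and 20.5 in GSK343 then DMSO cultures. It had 1.02, 1.04 and 0.487 RPKM in DMSO then GSK343 cultures and 52.6, 1.41 and 2.85 in DMSO then DMSO cultures. The first DMSO then DMSO library, one of the 2 that stood apart, was thus in the range of the cultures that began in GSK343. Nphs1 had 1.09 and 27.1 RPKM in GSK343 then GSK343 cultures and 11.1, 12.6 and 7.88 in GSK343 then DMSO cultures. It had 0.0916, 0.280 and 0.0659 RPKM in DMSO then GSK343 cultures and 4.00, 0.0847 and 0.210 in DMSO then DMSO cultures. The first GSK343 then GSK343 library, the other that stood apart, was below the first DMSO then DMSO library. Ltb was near the limit of detection, with 0.806 to 2.00 RPKM (2 to 6 reads) in the 5 libraries begun in GSK343, 0 in the 3 DMSO then GSK343 libraries and 0.504, 0 and 0 in DMSO then DMSO libraries.

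Slc39a8 was mostly lower in cultures begun in GSK343. It had 2.25 and 0.186 RPKM in GSK343 then GSK343 cultures, 1.44, 0.486 and 1.62 in GSK343 then DMSO cultures, 2.51, 2.63 and 5.19 in DMSO then GSK343 cultures and 2.11, 4.89 and 3.09 in DMSO then DMSO cultures. Of the 5 libraries begun in GSK343, 1 lay above the lowest library begun in DMSO. Chst1 ranged over 0.730 to 0.885, 0.212 to 3.91, 0.173 to 3.45 and 1.04 to 2.92 RPKM in the same 4 groups, which overlap. Mcoln3 was not analysed in these cultures.

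**Figure D5:**
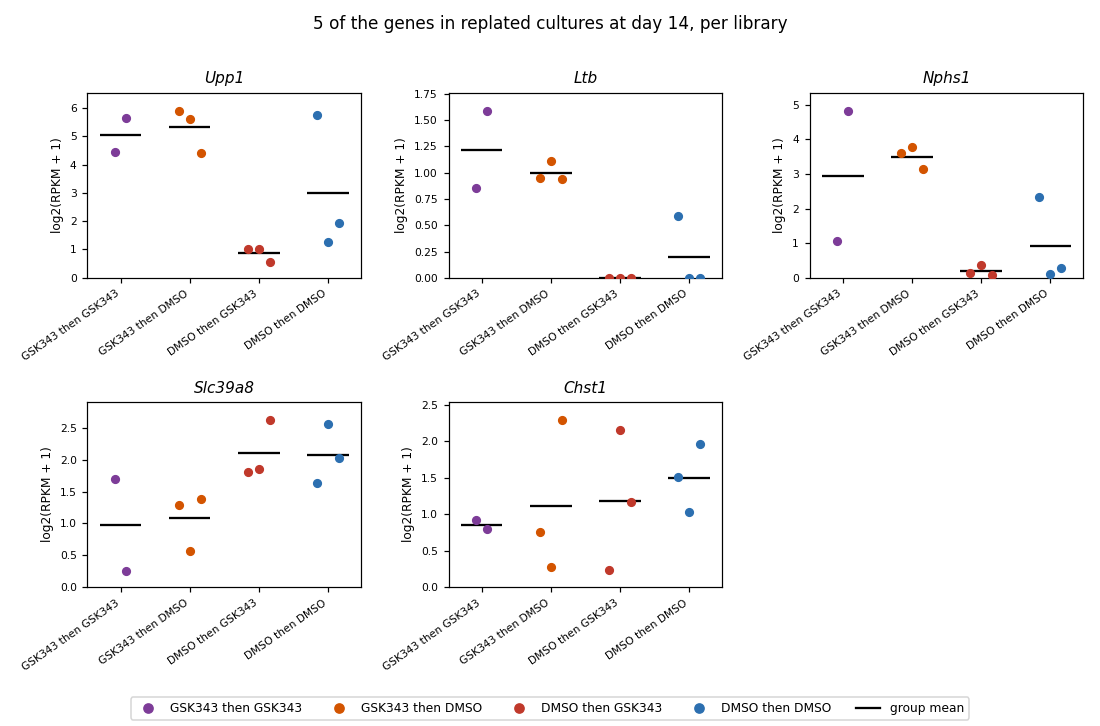
Levels of 5 of the genes in replated cultures at day 14, as log2(RPKM + 1), with a point for each library and a bar for the group mean (n = 2 for GSK343 then GSK343, n = 3 for the others). DMSO then DMSO library 1, the leftmost blue point, lies with the cultures begun in GSK343 for Upp1, at 52.6 RPKM against 1.41 and 2.85 in the other 2.

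All 3 replated comparisons share the DMSO then DMSO libraries, so they are not independent. Limma called none of the 5 genes in any of them, nor any of the 14367 genes tested (0%). At an unadjusted p under 0.05 there were 4 of 5 genes for GSK343 then DMSO, 3 of 5 for GSK343 then GSK343 and 1 of 5 for DMSO then GSK343, beside 3385, 2184 and 328 of all genes. Voom on recovered reads also called 0 in each. For GSK343 then DMSO the differences were 2.33 for Upp1 (SE 0.89, adjusted p = 0.172), 2.60 for Nphs1 (SE 0.78, 0.169), 0.80 for Ltb (SE 0.26, 0.169), -0.99 for Slc39a8 (SE 0.45, 0.204) and -0.39 for Chst1 (SE 0.54, 0.667). Groups did not overlap for 3 of these 5, Ltb, Nphs1 and Slc39a8, as for 34.3% of genes. For GSK343 then GSK343 the differences were 2.07 for Upp1 (adjusted p = 0.339), 2.03 for Nphs1 (0.319), 1.02 for Ltb (0.319), -1.10 for Slc39a8 (0.325) and -0.65 for Chst1 (0.579), with 2 of 5 apart, as for 29.4%. For DMSO then GSK343 they ran from -2.12 for Upp1 (adjusted p = 0.885) to 0.03 for Slc39a8 (0.992), with Upp1 alone apart, as for 7.84%.

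Leaving out the DMSO then DMSO library 1 and the GSK343 then GSK343 library 1, which stood apart, changed these calls and those of all genes. For GSK343 then DMSO, 1971 of 14301 genes then passed. The 2 libraries were picked after seeing the data, because they resembled each other across groups. Leaving them out therefore tends to widen the difference and narrow the spread, so these calls are description and no separate support. GSK343 then DMSO then gave 3.71 for Upp1 (adjusted p = 0.0010), 3.31 for Nphs1 (0.00038) and 1 for Ltb (0.0160). GSK343 then GSK343, with 1 library left, gave differences of 4.04 for Upp1, 4.62 for Nphs1, 1.58 for Ltb and -2.05 for Slc39a8. Leaving out the DMSO then DMSO library alone called Upp1 (3.71, adjusted p = 0.0026) and Nphs1 (3.31, 0.0299) for GSK343 then DMSO, and Upp1 (3.45, 0.0138) for GSK343 then GSK343, where 595 and 236 of all genes passed. Leaving out the GSK343 then GSK343 library alone, which also leaves 1 library there, gave differences of 1.39 for Ltb and 3.91 for Nphs1. The authors' deposited table calls Nphs1 between GSK343 then DMSO and DMSO then DMSO (2.79, adjusted p = 0.0015), and Upp1 (5.21, 1.8e-08), Nphs1 (5.85, 5.4e-11) and Ltb (3.91, 0.0402) between GSK343 then GSK343 and DMSO then GSK343. Pluripotency marker sums moved with Upp1 and Nphs1 here too, at 542 and 1041 RPKM in GSK343 then GSK343, 637 to 1070 in GSK343 then DMSO, 64.0 to 115 in DMSO then GSK343 and 617, 81.3 and 116 in DMSO then DMSO. Their part was not tested.

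Over the 18 mutant and wild-type libraries, the 6 genes fell into 2 sets that varied together, which partly restates how they were chosen. Slc39a8, Mcoln3 and Chst1 had Pearson correlations of 0.84 to 0.85 with each other. Upp1 correlated at 0.81 with Nphs1 and at 0.73 with Ltb, while Ltb and Nphs1 were at 0.39. Across the sets the values ran from -0.30 to -0.60. The libraries differ in stage, genotype and depth, so these are descriptions. Of 11662 genes, those closest to Nphs1 were Gab1 (0.96), Kcnk5 (0.96) and Kirrel2 (0.96), to Upp1 Cyct (0.94), Slc17a9 (0.93) and Mymx (0.93), and to Ltb Poli (0.92), Lst1 (0.92) and Prss36 (0.91). Those closest to Slc39a8 were Cmtr2 (0.95), B4galt4 (0.92) and Hspa4l (0.92), to Mcoln3 Kif21a (0.94), Prom1 (0.94) and Igsf1 (0.93), and to Chst1 Penk (0.91), Syt11 (0.89) and Hspa4l (0.89).

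Kirrel2, which encodes a nephrin-like protein of the slit diaphragm, is the neighbour of Nphs1, with 691 bases between their spans at chr7:30447766-30457515, and lies under the same H3K27me3 peak. It had 6.47 and 6.75 RPKM with GSK343 at day 4, against 1.90 and 1.75 with DMSO. At day 8 it had 5.37 and 3.76 RPKM with GSK343, against 0.195 and 0.0731 with DMSO, a rise of 2.28 by limma (adjusted p = 5.6e-05). In the mutant at day 4 it had 5.64, 13.3 and 10.3 RPKM, against 1.37, 2.15 and 7.47 in wild type, with library 3 of wild type within the mutant range as for Nphs1. At day 8 under GSK343, 1 of 9 slit diaphragm genes tested, Kirrel2 itself, rose and 4 fell, including Podxl, the podocyte sialoprotein podocalyxin (-2.29, adjusted p = 7.2e-05), and Synpo, an actin-associated protein (-0.63, 0.0110), with a list median of -0.07 against 0.00 for all genes.

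Genes that work with the other 5 moved in both directions under GSK343 at day 8, where 31.6% of all genes passed the test. In pyrimidine salvage and synthesis, 3 of 14 rose and 0 fell, and Dpys, which acts in pyrimidine breakdown, rose by 1.48 (adjusted p = 0.00059) with a list median of 0.09. In the lymphotoxin and TNF family, 1 of 10 rose and 2 fell, and Ltbr, the receptor of the lymphotoxin complex, fell by 1.42, while Tnfrsf1b rose by 0.98, with a median of 0.02. No defining lymphoid marker of 4 was in the GSK343 or mutant tables. In zinc transport, 4 of 21 rose and 6 fell, with a median of -0.24. The metallothionein Mt2 rose by 2.39 (adjusted p = 0.00022) with 313 and 691 RPKM with GSK343, against 84.0 and 91.5 with DMSO. Slc39a14, the importer closest in function to Slc39a8, rose by 1.92 (adjusted p = 4.0e-06), with 25.3 and 22.1 RPKM with GSK343 against 6.03 and 5.06 with DMSO, opposite to the fall of Slc39a8. Of endolysosomal channel genes and their regulators, 1 of 9 rose (Tfe3, 0.89) and 2 fell (Tpcn1, -1.31, and Lamp2, -0.94), with a median of 0.08. Among carbohydrate sulfotransferases and keratan sulfate genes, 3 of 13 rose, led by B3gnt7 (2.16), and 5 fell, with a median of 0.10. In the mutant at day 8 the test called 1 gene of these lists, Slc39a4, an intestinal zinc importer (1.45, adjusted p = 0.0302), and in mutant ES cells, at mutant day 4 and in GSK343 ES cells it called 0. Under GSK343 at day 4 it called only Kirrel2 (1.43) and Tfeb, a regulator of lysosomal genes (0.82), of these lists. Those are the libraries that chose the 6 genes, so these 2 calls are description and no separate support.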

How the data were processed

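RNA-seq values are RPKM per gene and library in 3 tables the authors deposited, 1 each for GSK343, mutant and replated cultures. The submitters' processing notes name STAR 2.5.3, featureCounts 1.6.1, edgeR, HOMER 4.10.3 and Bowtie2 2.3.4.3, with mm10 as the build, and the role of each tool is not known here. The authors' log2 fold changes and adjusted p-values, and their peak coordinates, were used as deposited, and peaks were matched within 1 kb of gene spans.

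Genes with at least 0.5 RPKM in 2 libraries (3 in the mutant table) were kept, which left 14016, 14180 and 14367 genes and every one of the 6 present. Limma 3.58.1 (R 4.3.3) was fitted to log2(RPKM + 1) with all groups of a table and a mean-dependent prior, and p-values were adjusted by Benjamini-Hochberg over all genes of a comparison. The method was tested on simulated data with the same spread setting for all genes and changes planted only in well-covered genes. That test does not cover libraries that stand apart, paired libraries or genes with few reads. RPKM steps gave whole reads within 0.02 for 100% of values with a known gene length (138 genes of the mutant table had none), and these served for depth and for voom. Reads in the replated table were more often even (62.7 to 89.2% of counts below 200 against 48.1 to 50.7% elsewhere), so a unit of 1 there may not be 1 fragment, and read numbers are as recovered. No source used here states the strand setting.

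The members and gene lists were chosen with earlier results of these data known. Named genes were the 6 members, Ezh2, up to 3 called genes with the smallest p per list and the 3 genes most correlated with each member among those averaging at least 1 RPKM, leaving out predicted, RIKEN and histone genes. Same numbers were taken to pair libraries where, with 3 pairs, every correlation of deviations was over 0.1. This held for mutant against wild type at day 4 (0.290 to 0.806) and for the wild-type steps (0.151 to 0.292 and 0.222 to 0.425), and not in mutant ES cells (lowest 0.0494) or at mutant day 8 (-0.259). Library 3 of the GSK343 then GSK343 group was not analysed here.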

Additional observations from a re-analysis of the deposited data

Results flagged for a closer look

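For 4 of the 6 genes the effect of GSK343 at day 8 differed from its effect in ES cells in a test of the difference itself, which is what singled them out here. On the log2(RPKM + 1) scale the day 8 effect exceeded the ES cell effect by 2.37 for Upp1, 1.22 for Ltb and 3.02 for Nphs1. For Slc39a8 the difference was -1.45, that is, a lower value with GSK343 at day 8. The 2 effects share no library. Of all genes, 19.9% passed the same test.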

How the results depend on the processing

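Of 90 checks of a comparison under another setting, 78 kept their result, and of 83 that left out 1 library 71 did. A result was kept if the count stayed within 1.5 times. At GSK343 day 4 it was kept if the median size of the differences moved by less than the spread between libraries. Those kept include counts of 0 that stayed at 0, so the tally says little about those comparisons. At GSK343 day 4 the median size of the 6 differences, 1.58, became 1.96 with a pseudocount of 0.1 and 2.01 with voom, and 1.52 to 1.61 with 1 library left out. Members called in mutant ES cells went to 1 (Slc39a8) with that pseudocount and with the replicate block (adjusted p = 0.0337), and at mutant day 4 to 1 with the replicate block and 2 with the block and 1 library left out, chosen after seeing the data like the next 2 settings. Without both day 8 libraries that stood apart 3 were called in the mutant, where Chst1 turned to 0.062. Without both replated ones 3 were called for GSK343 then DMSO, and fitting only the contrast's groups gave 1 (Nphs1) for GSK343 then DMSO. Calls over all genes increased in the same fits, to 2457, 1971 and 1046. Voom left 2 of 4 in wild type from ES cells to day 4, and a pseudocount of 0.1 gave 1 (Nphs1) from day 4 to day 8. With 1 library left out, members called ranged from 0 to 6 and 0 to 3 in these 2 steps, 0 to 1 at mutant day 4, 0 to 2 at mutant day 8, 0 to 1 for its interaction and 0 to 2 for either culture begun in GSK343. Signs turned for Ltb after DMSO then GSK343 (0.026, voom), Mcoln3 from wild-type day 4 to day 8 (0.10, voom) and Nphs1 in the mutant interaction (1.44, pseudocount 0.1, and 3.57, voom); the cause was not tested. Leaving out 1 library, signs turned within these ranges: in GSK343 ES cells Upp1 -0.12 to 0.012 and Slc39a8 -0.029 to 0.43, at GSK343 day 8 Chst1 -0.058 to 0.52, in mutant ES cells Nphs1 -0.58 to 0.20 and Ltb -0.025 to 0.48, at mutant day 8 Chst1 -1.23 to 0.026, after DMSO then GSK343 Slc39a8 -0.24 to 0.27, Ltb -0.29 to 0 and Chst1 -0.80 to 0.16, after GSK343 then DMSO Chst1 -0.99 to 0.022. From wild-type day 4 to day 8 they were Upp1 -0.68 to 0.85, Mcoln3 -0.55 to 0.28 and Slc39a8 -1.23 to 0.032, and in the mutant interaction Nphs1 -0.90 to 0.45, Upp1 -1.13 to 0.40 and Mcoln3 -0.53 to 0.29. The replicate block moved the genes called over all from 88 to 270 at GSK343 day 4, 13 to 41, 7 to 26 and 214 to 616 in the mutant at its 3 stages, and 2794 to 4377 in the GSK343 interaction, and voom gave 6, 3 and 47 in the mutant and 795 in place of 1230 in wild type to day 4. Fitting only the contrast's groups gave 200 at GSK343 day 4, 2785 in place of 4434 at GSK343 day 8, 1, 2 and 3 in the mutant at its 3 stages, and 326 and 1184 (in place of 2942) in the wild-type steps. A pseudocount of 0.1 called 1 gene in each culture begun in GSK343, where there had been 0. The block also called Chst1 between DMSO day 8 and ES cells, 6 in place of 5, and changed no other call count of the 6. Counts of 1 to 13 reads limit Ltb, Nphs1 and Chst1 where they are low.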
